A study of Mus musculus with 1931 samples.

Results

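The 9 genes *Klf2*, *Klf4*, *Klf5*, *Tfcp2l1*, *Esrrb*, *Tbx3*, *Zfp42*, *Nr0b1* and *Tcl1*, taken as the factors of naive pluripotency, were followed through all single cells of the series. They were chosen by name, and all 9 were found among the 20999 genes of the deposited table. The cells came from Rosette-to-Lumen (RtL) embryoids, which are 3D aggregates of 3 mouse embryonic stem cell (ESC) lines, and from 3 2D cultures. Kermit ESCs carry a GFP transgene controlled by Oct3/4 and give the Epi-like compartment. 5-Factor ESCs carry inducible *Cdx2*, *Tfap2c*, *Eomes*, *Gata3* and *Ets2* and give the ExE-like compartment, and mCherry-labelled iGATA6 ESCs carry an inducible, lentiviral *Gata6* and give the VE-like compartment. The transgenes were switched on in the embryoids and in the iTSC and iXEN cultures with doxycycline at 2 µg/ml for 3 days, followed by 24 h without the drug. The embryoids, Kermit cells included, received this treatment as a whole, in a medium for which the methods list neither LIF nor 2i, whereas the 2D ESC were Kermit cells kept in 2i/LIF without doxycycline. The iTSC were reprogrammed in TSC medium, partly conditioned by feeder cells, with FGF4 and heparin, which the methods do not list for the embryoids. The iXEN cells were reprogrammed in a XEN cell medium. Cells were sorted by GFP, mCherry and the surface protein CD40 into multiwell plates. Wells in columns 1 to 8 of plates 3, 4 and 5 are called Epi wells here, those in columns 9 to 16 VE wells and those in columns 17 to 24 ExE wells, a division by column that neither the sample labels nor the methods state and that was checked only against markers of the 3 compartments.

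A cell entered the analysis when 2500 or more genes had a value above 0, which left 1406 of the 1931 wells. The Epi wells held 22.3% of these cells, the VE wells 22.4%, the ExE wells 25.1%, ESC 10.1%, iTSC 10% and iXEN cells 10%. This minimum kept 82.2% of the wells in the Epi block, 82.2% in the VE block and 91.9% in the ExE block. Among the 2D wells it kept only 44.8% for ESC and 49.8% for iTSC, and 77.5% for iXEN cells. The embryoids are 1 pool and each 2D culture is 1 sample. Replication between cultures or pools is therefore lacking, tests were not made, and the 3 plates show only the technical spread within the pool. Levels are mean TP10k, that is TPM, an abundance corrected for transcript length, scaled to 10000 per cell over the deposited genes, and they can therefore be set side by side between genes. Shares of cells above 0 carry exact 95% Clopper-Pearson intervals (CI), which cover counting error only.

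Naive pluripotency is the state of the preimplantation epiblast and of ESCs kept in 2i/LIF, in which LIF signals through STAT3 while inhibitors block MEK/ERK signalling and GSK3. STAT3 raises *Klf4* and *Tfcp2l1*, release of the repressor TCF7L1 raises *Esrrb*, and these factors bind each other's regulatory regions and those of *Pou5f1*, *Sox2* and *Nanog*. When the epiblast implants and forms a rosette with a lumen, the naive factors are shut down and formative genes such as *Fgf5*, *Otx2* and *Dnmt3b* come up. Several naive factors have further roles outside the epiblast, *Esrrb*, *Tfcp2l1* and *Klf5* in trophoblast and *Tbx3*, *Klf4* and *Klf5* in endoderm or other epithelia.

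The genes lie on several chromosomes (GRCm38, positions from Gencode vM21, all annotated as protein coding). *Klf2* is on chromosome 8 from 72319033 to 72321656, *Klf4* on chromosome 4 from 55527143 to 55532466 and *Klf5* on chromosome 14 from 99298691 to 99315036. *Tfcp2l1* is on chromosome 1 from 118627945 to 118685168, *Esrrb* on chromosome 12 from 86361117 to 86521628 and *Tbx3* on chromosome 5 from 119670669 to 119684724. *Zfp42* is on chromosome 8 from 43295063 to 43306980, *Nr0b1* on chromosome X from 86191764 to 86195947 and *Tcl1* on chromosome 12 from 105216750 to 105222793. Windows of 250 bases before a RefSeq start site (GRCm38.p6) were found for 7 of the 9 genes. They were searched on both strands for 7 short motifs of factors of this network. Of these windows, those of *Zfp42* and *Esrrb*, the pair of genes that varied most closely together between cells, and of *Tfcp2l1*, which differed strongly between 3D and 2D, are printed 5′ to 3′ along the strand of the gene, with motif matches in capitals.
Zfp42, chr8:43307010-43307259, minus strand: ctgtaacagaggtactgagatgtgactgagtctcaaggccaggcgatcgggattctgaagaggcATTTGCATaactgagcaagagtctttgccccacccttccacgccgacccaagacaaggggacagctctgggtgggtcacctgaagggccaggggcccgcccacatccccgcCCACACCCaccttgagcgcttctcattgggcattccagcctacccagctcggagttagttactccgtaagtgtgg
Esrrb, chr12:86360867-86361116, plus strand: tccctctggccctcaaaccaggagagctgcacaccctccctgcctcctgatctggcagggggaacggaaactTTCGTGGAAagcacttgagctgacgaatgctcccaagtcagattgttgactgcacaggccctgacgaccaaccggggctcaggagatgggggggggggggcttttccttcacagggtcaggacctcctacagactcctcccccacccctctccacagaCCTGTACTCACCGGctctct
Tfcp2l1, chr1:118627695-118627944, plus strand: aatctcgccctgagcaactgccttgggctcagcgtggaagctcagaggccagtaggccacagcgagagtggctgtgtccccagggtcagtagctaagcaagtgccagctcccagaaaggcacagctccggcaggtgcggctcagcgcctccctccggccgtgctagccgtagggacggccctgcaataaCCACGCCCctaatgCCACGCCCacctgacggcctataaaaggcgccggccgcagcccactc
The *Zfp42* window held the octamer ATGCNAAT, the site of POU factors, which 2.86% of all 32851 windows of this length held, and a KLF-type match GGGNGTGG, which 15.9% held. The *Esrrb* window held a STAT-type match TTCNNNGAA, present in 7.02% of all windows, and a match to the TFCP2L1-type motif, a repeated CCNG with a gap, present in 24.9%. The *Tfcp2l1* window held 2 KLF-type matches. TFCP2L1-type matches were further seen for *Klf2* (2 overlapping), *Tcl1* (2) and *Nr0b1* (1), no match was seen in the window of *Klf4* or before the other start of *Esrrb*, and the ESRRB-type AAGGTCA (4.08% of windows), the SOX-type CATTGTT (3.29%) and the TCF-type ATCAAAG (3.21%) were seen in none of the 7 genes' windows. A match describes letters and not a bound site.

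The sorted wells followed their names in most but not all cells. All 7 Epi, 8 VE and 8 ExE markers had their highest 3D mean in the wells of their name, and the list of the own compartment was the highest of the 3 lists in 99.7% of cells of the Epi wells and 98.1% of the VE wells. In the ExE wells this held for 68.6% of cells, while the VE list was highest in 70 cells and the Epi list in 41. In the 2D cultures it held for all ESC and iXEN cells but for only 89 iTSC (63.1%), the other 52 having the highest mean for the Epi list. *Pou5f1* was above 0 in 99.7% of cells in Epi wells, 90.8% in VE wells, 14.4% in ExE wells and 63.8% of iTSC. Fibroblast collagens and surface markers summed to at most 0.0470 TP10k in any group, with *Col3a1* at 0 in the Epi wells. The median number of genes per cell was 4823 in Epi, 5348 in VE and 5396 in ExE wells and 9094 in ESC, 8537 in iTSC and 8699 in iXEN cells, so shares of cells are not directly comparable between 3D and 2D.

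*Klf2*, *Klf4* and *Klf5* encode Krüppel-like zinc finger factors that overlap in sustaining self-renewal of ESCs, and they followed 3 different patterns. Among the 3D groups, *Klf2* was mainly found in the Epi wells. Its mean was 0.564, 0.462 and 0.411 TP10k in the Epi wells of plates 3, 4 and 5, at most 0.0809 on any plate in VE wells and at most 0.0155 in ExE wells, so the blocks did not overlap. It was above 0 in 61.8% of cells of the Epi wells (95% CI 56.2% to 67.2%), 4.76% of the VE wells and 2.83% of the ExE wells. In ESC it averaged 1.06 TP10k and was above 0 in 99.3% of cells, against 18.4% of iTSC and 9.22% of iXEN cells at 0.0310 and 0.00863 TP10k. Of the 15 cells with *Klf2* in VE wells, 3 were among the 5 cells in which the Epi list was highest, and without cells of another list the VE mean fell from 0.0372 to 0.0154 TP10k.

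*Klf4*, a direct target of STAT3, had its highest 3D level outside the Epi wells. It averaged 0.493, 0.409 and 0.596 TP10k in the VE wells of the 3 plates, against 0.101, 0.149 and 0.164 in the Epi wells and 0.0857, 0.0360 and 0.0744 in the ExE wells. The VE values lay above all others, and the Epi values lay above the ExE values. Cells of the VE wells were above 0 in 73% (95% CI 67.8% to 77.8%), those of the Epi wells in 32.2% (95% CI 27% to 37.6%) and those of the ExE wells in 20.4%. In 2D the order was different, with 0.884 TP10k in ESC, 0.221 in iXEN and 0.0264 in iTSC.

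*Klf5*, which takes part in both inner cell mass and trophectoderm, had its lowest level of the 6 groups in the Epi wells. Its means were 0.770, 0.534 and 0.646 TP10k in Epi wells, 2.38, 1.79 and 1.84 in VE wells and 1.60, 1.49 and 1.43 in ExE wells. These 3 ranges did not overlap. Among the 2D cultures, iTSC had 1.74, iXEN cells 1.36 and ESC 1.09 TP10k. The share of cells above 0 was 74.8% in Epi wells and lay between 94.3% and 100% in every other group.

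Of the factors that act directly on the naive network, *Esrrb*, an orphan nuclear receptor that also serves trophoblast stem cells, was found in the Epi and ExE lineages. It averaged 0.907, 0.645 and 0.810 TP10k in Epi wells and 0.523, 0.469 and 0.425 in ExE wells, and 0.0634, 0.0663 and 0.0471 in VE wells. Epi values exceeded ExE values on every plate, and both were far above the VE wells. In 2D, ESC had 1.17, iTSC 0.844 and iXEN cells 0.00235 TP10k, and the iTSC value lay within the range of the Epi wells.

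*Tfcp2l1*, a grainyhead-family factor induced by LIF and STAT3, was at similar levels in both of these lineages in 3D. Its means were 0.264, 0.221 and 0.279 TP10k in Epi wells and 0.330, 0.366 and 0.279 in ExE wells, and the highest Epi and lowest ExE value, both from plate 5, both rounded to 0.279. The VE wells were below both, with 0.115, 0.0596 and 0.0554. The order of the 2D cultures was ESC at 1.15, iTSC at 0.754 and iXEN at 0.118 TP10k. Cells above 0 made up 62.1% of the Epi wells, 65.2% of the ExE wells and 37.1% of the VE wells.

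*Tbx3*, a T-box factor downstream of LIF that can also drive ESCs toward endoderm, resembled *Klf4* in leading in the VE wells. It averaged 0.581, 0.596 and 0.445 TP10k there, 0.276, 0.199 and 0.287 in Epi wells and 0.271, 0.196 and 0.150 in ExE wells. The VE range lay above the others, while Epi and ExE ranges overlapped. Within each plate the Epi mean was the higher of these, with log2 ratios over the ExE wells of 0.02, 0.02 and 0.89. In cells with their own list highest, *Tbx3* averaged 0.254 TP10k in Epi wells and 0.151 in ExE wells. ESC had 0.726, iXEN 0.390 and iTSC 0.153 TP10k. The share above 0 was 84.8% in VE wells (95% CI 80.3% to 88.5%), 54.7% in ExE wells and 36.9% in Epi wells.

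Of the last 3 members, *Zfp42* (Rex1), a zinc finger gene used as a reporter of the naive state, was above 0 in at least 88.3% of cells in each of the 6 groups. Its means were 4.75, 3.67 and 4.99 TP10k in Epi wells, 1.58, 1.24 and 1.37 in VE wells and 2.24, 1.93 and 2.12 in ExE wells, so that the Epi values lay above all others and the ExE above the VE values. In 2D it averaged 7.33 TP10k in ESC, 1.95 in iTSC and 1.02 in iXEN cells. The iTSC value lay within the range of the ExE wells.

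*Nr0b1* (Dax1), an orphan nuclear receptor that binds OCT4, was the only member with a higher mean in Epi wells than in ESC. It averaged 2.68, 2.59 and 3.03 TP10k in Epi wells, 0.398, 0.299 and 0.347 in VE wells and 0.149, 0.0830 and 0.142 in ExE wells. ESC had 1.96 TP10k, below every Epi plate. In iTSC it averaged 0.893 TP10k with 63.1% of cells above 0, whereas in iXEN cells it was above 0 in only 8 cells (5.67%).

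*Tcl1*, a coactivator of AKT kinases, was almost absent from the ExE wells, where 4 cells (1.13%, 95% CI 0.310% to 2.88%) were above 0. It averaged 2.64, 2.37 and 2.29 TP10k in Epi wells and 1.06, 0.763 and 0.582 in VE wells, whose ranges did not overlap, and 3.30 in ESC. In the Epi wells 69.7% of cells were above 0, and these cells averaged 3.49 TP10k, close to the 3.32 of positive ESC. *Klf4* was different, since its positive cells averaged 0.430 TP10k in Epi wells and 0.890 in ESC.

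**Figure D1:**
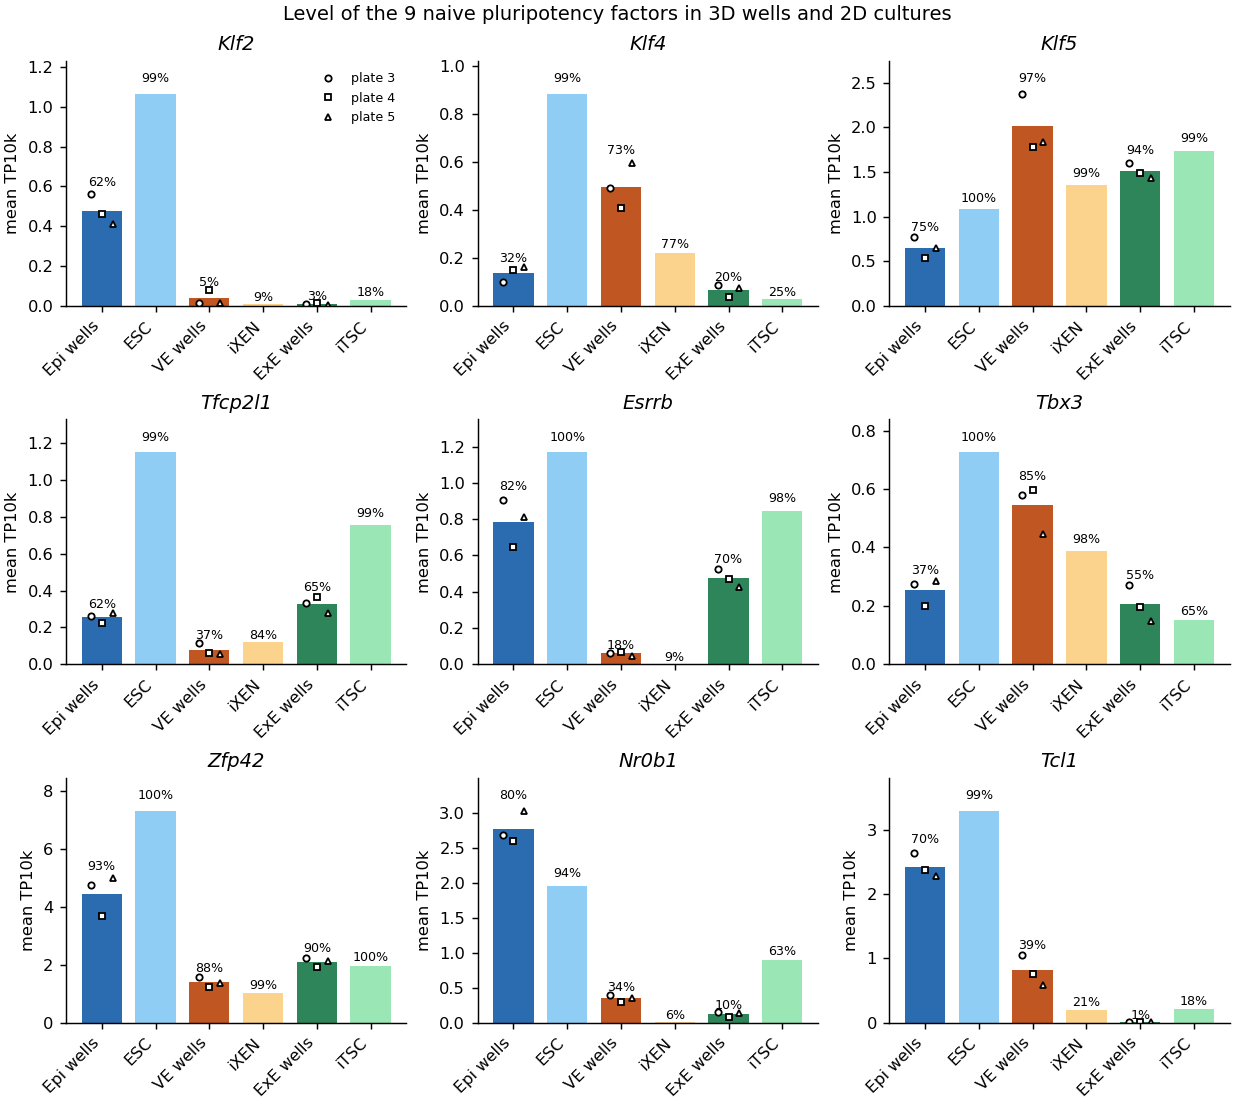
Bars give the mean TP10k of each naive pluripotency factor on a linear axis in the 3 well blocks of the embryoids and the ESC, iXEN and iTSC cultures, points the means on plates 3, 4 and 5, and the number over a bar the share of cells above 0. Among the 3D groups *Klf2*, *Esrrb*, *Zfp42*, *Nr0b1* and *Tcl1* are highest in Epi wells and *Klf4*, *Klf5* and *Tbx3* in VE wells.

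Within the embryoid, 3 of the 9 members were at least 2-fold higher in Epi wells than in both other blocks on every plate, namely *Klf2*, *Nr0b1* and *Tcl1*, where 3.64% of the 11215 genes examined met the same criterion. Only genes above 0 in at least 10% of cells of a group compared were examined, and 0.01 TP10k was added to both means of a ratio. *Klf2* passed this filter through the Epi wells alone, in which it is high. The count of 3 is therefore a description of the members and no support for a direction. *Klf4* alone met the 2-fold criterion for the VE wells (3.52% of genes) and no member for the ExE wells (3.38%). *Zfp42* missed it for the Epi wells because on plate 4 its log2 ratio over the ExE wells was 0.92. *Esrrb* was 3.52 on the log2 scale above the VE wells but only 0.72 above the ExE wells. For *Tfcp2l1* these values were 1.59 and -0.34, and for *Klf5* they were -1.62 and -1.21. Among the 2D cultures, 5 members, *Klf2*, *Klf4*, *Zfp42*, *Nr0b1* and *Tcl1*, were at least 2-fold higher in ESC than in both iTSC and iXEN cells, against 5.82% of 14124 genes. *Klf2*, *Nr0b1* and *Tcl1* met it in both Epi wells and ESC, while *Klf4* met it in VE wells and ESC.

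The comparison of Epi wells with ESC addresses how far the Epi-like compartment has moved from the naive state. Both derive from Kermit ESCs, but they differ in medium, doxycycline, 3D culture, plate and number of genes per cell, and the parts of these in a difference cannot be told apart. Of the 9 members, 8 had a lower mean in Epi wells and 3 were at least 2-fold lower on every plate, where 3.66% of 13109 genes were. No member was at least 2-fold higher, where 4.23% of genes were. The median log2 ratio of the members was -0.74, against 0.10 for all genes examined.

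All of these 8 were lower on every plate, and 3 of them by at least 2-fold on each. *Klf4* had log2 ratios of -3.02, -2.49 and -2.36 on plates 3, 4 and 5, *Tfcp2l1* of -2.08, -2.33 and -2.01 and *Tbx3* of -1.36, -1.81 and -1.31. *Klf2* narrowly missed the criterion with -0.91, -1.19 and -1.35. The other members differed less, with *Klf5* at -0.74, *Zfp42* at -0.71, *Esrrb* at -0.57 and *Tcl1* at -0.44 over all plates, and *Nr0b1* was higher with 0.45, 0.40 and 0.63. To narrow the gap in detected genes, cells with 5500 to 8500 genes were compared, of which there were 85 in Epi wells and 20 among ESC. A gap remained, with a median of 5886 genes in Epi wells and 8189 in ESC, and 67 of the 85 cells came from plate 3, 11 from plate 4 and 7 from plate 5. In these, *Klf4* was above 0 in 44.7% of cells of Epi wells (95% CI 33.9% to 55.9%) and 95% of ESC (95% CI 75.1% to 99.9%), and *Tbx3* in 45.9% and 100%. *Nr0b1* averaged 3.10 TP10k in Epi wells and 1.41 in ESC in this window, and was there at least 2-fold higher on every plate, which for plates 4 and 5 rests on these few cells.

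In the VE wells most members lay above the level of the iXEN cells, the matching 2D culture of the same iGATA6-mCherry line. VE wells and iXEN cells differ in medium, 3D culture, plate and number of genes per cell. The parts of these in a difference cannot be told apart. Of 8 members examined, 3 were at least 2-fold higher on every plate, *Esrrb*, *Nr0b1* and *Tcl1*, against 1.31% of 12248 genes, and none was lower, against 2.89%. *Esrrb* and *Nr0b1* were above 0 in under 10% of iXEN cells and were examined only through the VE wells, the group in which they are high, so the count of 3 is a description of the members and no support for a direction. *Tcl1* was above 0 in 38.7% of cells in VE wells and 21.3% of iXEN cells, with a log2 ratio of 1.97 over all plates. *Nr0b1* was above 0 in 34% against 5.67%, and *Esrrb* in 18.4% against 9.22%, both despite the larger number of genes per iXEN cell. The iXEN means of both genes are at or near the 0.01 added, so the size of their ratios depends on it, and with 0.1 TP10k added *Esrrb* no longer passed. *Pou5f1*, the marker of pluripotent cells, was higher too, with 4.53 TP10k in VE wells and 1.60 in iXEN cells, and its part in the result was not tested. *Klf4* was at 1.13, 0.86 and 1.39 on the log2 scale, *Tfcp2l1* alone had a lower mean in VE wells, with -0.55, and *Klf2*, found in under 10% of cells of both groups, was not examined.

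In the ExE wells more members lay below the 2D culture than above it. ExE wells and iTSC differ in medium, with FGF4 and heparin for iTSC, and in 3D culture, plate and number of genes per cell. The parts of these in a difference cannot be told apart. Of the 9 members, 3 were at least 2-fold lower than in iTSC on every plate, *Tfcp2l1*, *Nr0b1* and *Tcl1*, where 5.00% of 13012 genes were, and none was higher, where 5.33% were. *Nr0b1* and *Tcl1* were above 0 in under 10% of cells of the ExE wells and were examined only through iTSC, in which they are higher. The count of 3 is therefore a description of the members and no support for a direction. *Tfcp2l1* missed the criterion under several of the alternatives given at the end. *Nr0b1* had log2 ratios of -2.51, -3.28 and -2.57, and *Tfcp2l1* of -1.17, -1.02 and -1.40. *Klf5* and *Zfp42* differed little, with -0.20 and 0.10, and the latter turned to -0.11 when means were taken on the logarithmic scale. Cells of another marker list were present in both groups. Among iTSC, *Tcl1* averaged 0.521 TP10k in the 52 cells with the Epi list highest and 0.0305 in the 89 with the ExE list highest. When only cells with their own list highest were compared, *Nr0b1* alone was at least 2-fold lower on every plate, with 0.106 TP10k in such cells of the ExE wells and 1.03 in 89 iTSC. *Tfcp2l1* was still lower there, with 0.361 and 0.690 TP10k and a log2 ratio of -0.91 in place of -1.19, while that of *Tcl1* went from -3.59 to -0.99. *Tbx3* averaged 0.372 TP10k in the 70 cells of the ExE wells with the VE list highest and 0.151 in those with the ExE list highest.

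**Figure D2:**
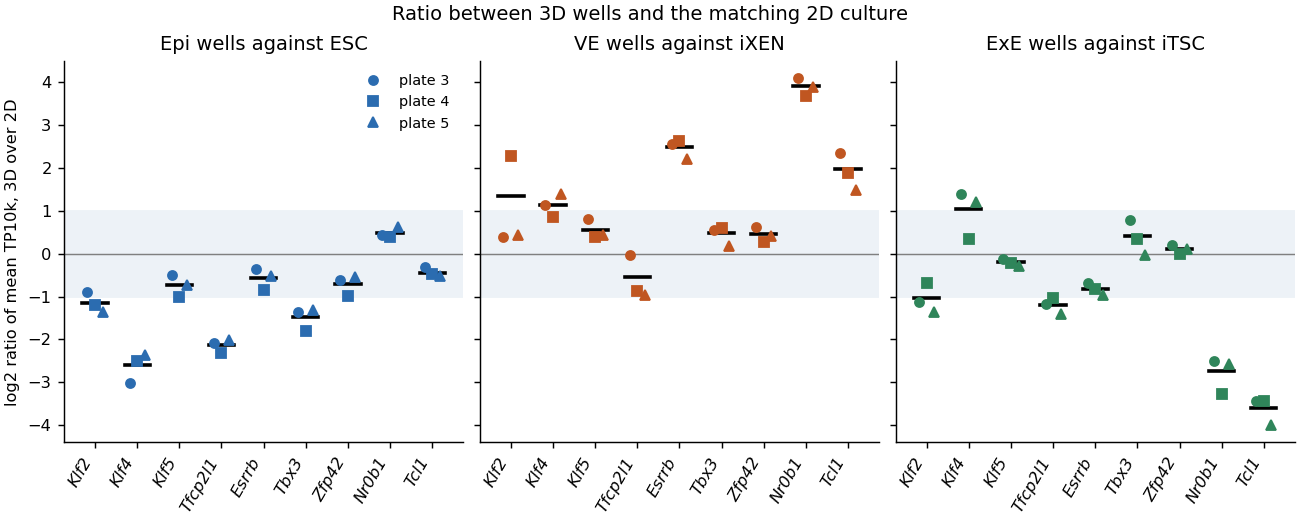
The vertical axis is the log2 ratio of mean TP10k in 3D wells over the matching 2D culture for each member, with a line for all plates, points for the 3 plates and a grey band for ratios under 2-fold. *Klf4*, *Tfcp2l1* and *Tbx3* lie lowest in Epi wells against ESC, and *Nr0b1* and *Tcl1* lie above 0 in VE wells against iXEN cells and below 0 in ExE wells against iTSC.

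The number of members above 0 in a cell described how far the naive factors were present together. The median was 6 of 9 in Epi wells (quartiles 5 and 7), 5 in VE wells, 4 in ExE wells, 9 in ESC, 6 in iTSC and 5 in iXEN cells. All 9 were above 0 in 32 cells of the Epi wells (10.2%, 95% CI 7.08% to 14.1%) and in 93% of ESC (95% CI 87.4% to 96.6%). The ExE wells held no such cell, and 7 cells of the Epi wells had no member above 0. Within the window of 5500 to 8500 genes, the median was 7 in the 85 cells of the Epi wells, of which 19 (22.4%) had all 9, and 9 in the 20 ESC, of which 18 had all 9. The Epi wells thus spanned all values from 0 to 9, while no ESC had fewer than 6.

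**Figure D3:**
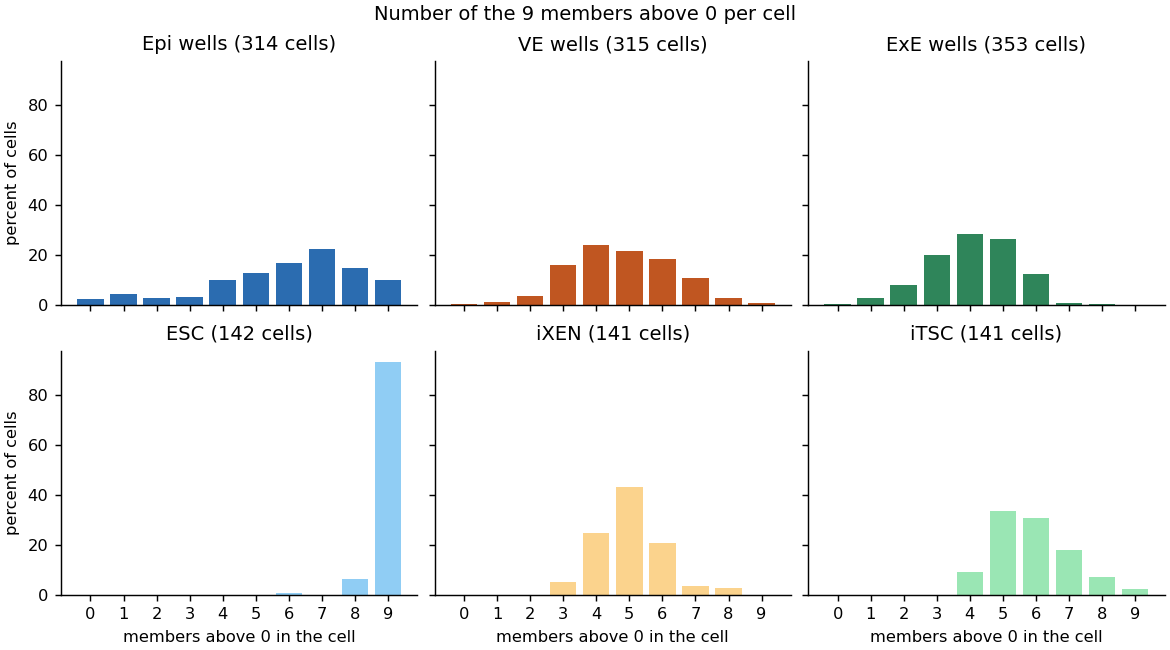
Bars give the share of cells (percent) by number of the 9 members above 0, for the 6 groups. ESC are gathered at 9 members, while cells of the Epi wells spread from 0 to 9 with a median of 6.

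Among the cells of the Epi wells the members varied together. Pearson's r was computed across cells on ln(TP10k + 1) centred on each plate, and it is a description, since the cells share 1 pool and their plates. All 36 pairs were positive, with a median r of 0.244 and a range of 0.0518 to 0.373, and 31 pairs were positive on each of the 3 plates. The medians were 0.315, 0.210 and 0.185 on plates 3, 4 and 5. The number of genes per cell was little related to the members, with r between -0.0896 and 0.110. In ESC, by contrast, the median over the pairs was 0.0381 and 21 of 36 were positive, in VE wells it was 0.113 and in ExE wells 0.0376. These medians were not tested against each other.

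*Esrrb* and *Zfp42* had the highest r of all pairs, 0.373, with 0.560, 0.360 and 0.238 on the 3 plates. *Tcl1* followed with *Esrrb* (0.367), *Zfp42* (0.354) and *Klf5* (0.350). The lowest values belonged to *Nr0b1*, with *Klf4* at 0.0518 and with *Tbx3* at 0.0690. The median r fell to 0.123 when each pair was taken over the cells with both genes above 0, which leaves fewer cells and a narrower range of values, and the cause was not tested.

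**Figure D4:**
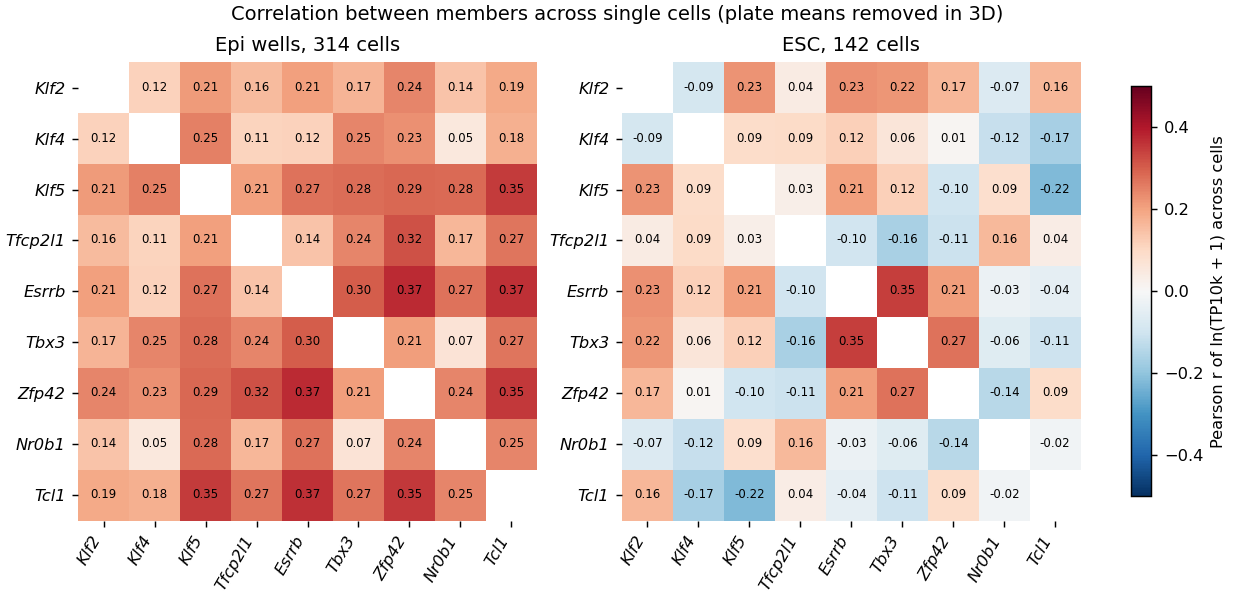
Colours and printed values give Pearson's r across cells for the 36 pairs of members, in Epi wells and in ESC. In Epi wells all 36 are above 0, and *Esrrb* with *Zfp42* is the highest at 0.373.

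Each member was also ranked against all 9730 genes found in at least 10% of cells of the Epi wells. Over all these genes the median r with a member lay near 0, between -0.0105 and -0.00188. All 8 fellow members were in the top 5% for *Klf2*, *Klf5*, *Tfcp2l1*, *Esrrb*, *Zfp42* and *Tcl1*, 7 for *Klf4* and *Tbx3*, and 6 for *Nr0b1*. The gene most like *Klf5* was *Tcl1*, and the gene most like *Esrrb* was *Zfp42*. For *Tfcp2l1* it was *Nanog*, with an r of 0.335, followed by *Zfp42*.

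Genes outside the list ranked first for other members. *Spp1*, which encodes the secreted protein osteopontin, was among the 3 nearest genes of *Klf5*, *Zfp42*, *Nr0b1* and *Tcl1*, with r of 0.340, 0.375, 0.335 and 0.425. For *Zfp42* the first was *Mylpf*, a myosin light chain gene, with 0.428 and with 0.421, 0.431 and 0.434 on the plates. *Nr0b1* lay nearest to *Tdh*, the threonine dehydrogenase of ESC metabolism, with 0.382. *Tbx3* lay nearest to *2210409E12Rik* with 0.404, and *Klf4* to *Gabbr1* (0.338), *Zfp57* (0.297) and *H2-M5* (0.295), which all 3 lie in the extended major histocompatibility complex.

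Against 9 formative and primed genes measured in the Epi wells, the members ran in the other direction. All 9 had an r below 0 with *Klf4*, *Tfcp2l1*, *Esrrb*, *Tbx3*, *Zfp42* and *Tcl1*, 8 with *Klf2* and *Klf5*, and 7 with *Nr0b1*. The median was -0.244 for *Zfp42*, -0.236 for *Tcl1* and -0.174 for *Tfcp2l1*, and -0.0508 for *Nr0b1*. *Dnmt3b*, the methyltransferase raised in the implanting epiblast, had the lowest r with *Zfp42*, -0.54, and -0.59, -0.62 and -0.41 on plates 3, 4 and 5. With *Tcl1* it had -0.47 and with *Esrrb* -0.40. *Nr0b1* and *Otx2*, a driver of the formative state, were an exception with 0.13.

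*Nanog* was positive with every member, from 0.117 for *Klf2* to 0.367 for *Zfp42*. The 15 other naive-state genes measured, of which *Nanog* is 1, were less uniform, and between 2 (for *Klf2*) and 6 (for *Klf4*) of them had an r below 0 with a member. This list is mixed, since it includes *Tcf7l1*, named above as a repressor, and *Dppa3* and *Prdm14*, which are also germ cell genes. Over these genes the median r was highest for *Tcl1* with 0.154 and lowest for *Tfcp2l1* with 0.0486.

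**Figure D5:**
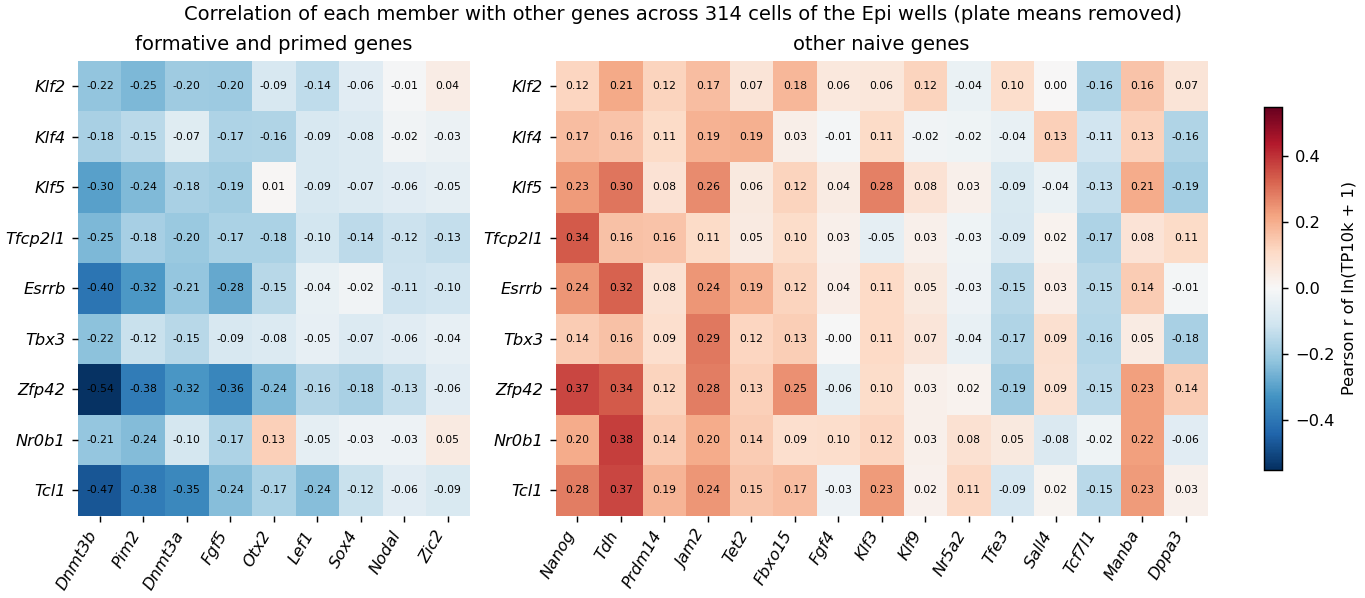
Colours and printed values give Pearson's r across the cells of the Epi wells between each member and the other naive-state genes and the formative and primed genes. Formative and primed genes lie mostly below 0, lowest for *Zfp42* with *Dnmt3b*.

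In the other lineages members were set against trophoblast stem genes and Epi markers. In ExE wells *Esrrb* was positive with all 8 trophoblast stem genes, with a median r of 0.191 and 0.272 for *Eomes*, the T-box factor of trophoblast stem cells. *Tbx3* was negative with 7 of these 8, with a median of -0.116. In VE wells *Klf5*, *Tcl1* and *Tbx3* were positive with *Pou5f1*, with r of 0.455, 0.370 and 0.328. The other 2 Epi markers found in at least 10% of these cells, *Utf1* and *Nanog*, had 0.0841 and -0.0128 with *Klf5*, 0.196 and 0.150 with *Tcl1*, and -0.0468 and -0.0304 with *Tbx3*. In iTSC *Tcl1* had an r of 0.732 with *Tdgf1*, 0.644 with *Nanog* and 0.566 with *Pou5f1*. These iTSC are a mixture, since 52 had the highest mean for the Epi list, to which *Tdgf1*, *Nanog* and *Pou5f1* belong. *Tcl1* averaged 0.521 TP10k in these 52 and 0.0305 in the 89 iTSC with the ExE list highest. The ExE wells held cells of another list too. The part of such mixtures in these r was not tested.

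The LIF, ERK and WNT pathways were described by lists of their genes, with the same criterion in Epi wells against ESC. Of all 13109 genes examined there, 3.66% were lower and 4.23% higher, with a median log2 ratio of 0.10, and these shares apply to each list below. Whether these pathways act on the members in these cells was not tested. Epi wells and ESC differ in medium, doxycycline, form of culture, plate and number of genes per cell. The parts of these in a difference cannot be told apart. Of 8 LIF pathway genes, 4 were at least 2-fold lower and none higher, and their median log2 ratio was -1.03. *Socs3*, the feedback inhibitor of STAT3, averaged 0.0609 TP10k in Epi wells and 0.689 in ESC, and *Stat3* itself 0.208 and 0.697. *Junb* and *Pim3* had log2 ratios of -1.90 and -1.43. The receptor genes *Lifr* and *Il6st* did not pass, with -0.38 and -0.01.

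The ERK targets were listed as genes that MEK inhibition lowers, and the ESC were kept with a MEK inhibitor. Higher values in Epi wells were therefore favoured by the choice of the list, and its count is a description only. Of 7 ERK targets examined, 6 were at least 2-fold higher and none lower, with a median of 2.42. *Dusp6*, a phosphatase of ERK, averaged 0.933 TP10k in Epi wells and 0.141 in ESC, and *Spry2*, an inhibitor of receptor signalling, 3.28 and 0.605. *Spry4* and *Dusp4* passed with 3.74 and 3.15. The ESC means of *Spry4*, *Dusp4* and *Egr1*, which passed too, were 0.00519, 0.0114 and 0.00611 TP10k. These are near the 0.01 added, so the size of their ratios depends on it. Of 4 WNT targets examined, *Lef1*, which is also in the formative and primed list, passed as higher with 2.92 and none passed as lower. *Cdx1* had a lower mean on every plate, with -0.56, -2.02 and -2.26. *Axin2* and *Tcf7* had higher means, with 0.58 and 0.67 over all plates.

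Of 9 formative and primed genes, 4 were higher and none lower, with a median of 1.20. These were *Fgf5* (3.46), *Lef1* (2.92), the methyltransferase *Dnmt3a* (2.72) and *Pim2* (1.83), while *Dnmt3b* with 1.20 and *Otx2* with 0.62 did not pass on every plate. The ESC means of *Fgf5* and *Lef1*, 0.00654 and 0.00857 TP10k, are below the 0.01 added, so the size of these 2 ratios depends on it. Of 16 other naive-state genes, 4 were lower, with *Prdm14* at -1.91, *Nanog* and *Nr5a2* at -1.54 and *Jam2* at -1.31. The same list held 2 that were higher, *Dppa3* at 2.49 and *Manba* at 1.72. Among 6 genes of primordial germ cells, 2 were lower and 2 higher, and *Prdm14* and *Dppa3* among these are the genes already counted in the naive-state list. Among 6 trophoblast genes 1 was higher, and of 2 fibroblast genes examined none passed.

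In VE wells against iXEN cells, 2.89% of all genes examined were lower and 1.31% higher. The LIF list had 1 lower and 1 higher of 8, and none of 11 other naive-state genes passed in either direction. Of 7 formative and primed genes 3 were higher, *Fgf5*, *Dnmt3a* and *Nodal*, and none lower. In ExE wells against iTSC, where 5.00% of all genes examined were lower and 5.33% higher, 3 of 15 other naive-state genes were lower and none higher. There, 6 of 7 Epi markers were lower and 5 of 7 VE markers were higher. The members' ratios in that comparison stand beside this difference in markers, whose part in them was not tested beyond the own-list cells given above.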

How the data were processed

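Single cells were profiled with SMART-seq2 from 1 pool of RtL-embryoids, sorted on plates 3, 4 and 5, and from 1 culture each of ESC, iTSC and iXEN cells. The authors made the deposited TPM values by pseudoalignment with kallisto to the GRCm38 transcriptome, filtered mitochondrial, ribosomal and pseudogenes, and then summed the values per gene with tximport. TPM carry no read number, so depth per cell is unknown and the number of genes above 0 took its place. Neither did the deposited values allow the minimum of aligned reads given in the methods.

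A cell was used when 2500 or more genes were above 0, and TPM were scaled to 10000 per cell (TP10k). Mean TP10k, shares of cells with exact Clopper-Pearson intervals, ratios of means with 0.01 added and Pearson's r of ln(TP10k + 1) were computed with Python 3.11.15, numpy 2.4.6, pandas 2.3.3 and scipy 1.17.1, and were tested on simulated data. A gene was called where its ratio reached 2-fold in the same direction on each plate, among genes above 0 in at least 10% of cells of a group. With 1 sample per condition no model was fitted. All 9 members are named, from each gene list up to 4 called genes with the largest ratios, with further list members named after their values were seen, and for members other than *Klf2* genes among the 3 with the highest r, of which some are not reported here. The members and lists were chosen with earlier results of these data known. Alternatives changed the gene minimum, the expression threshold, the cells kept, the plates, the scaling, the mean, the value added, the filter and the correlation.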

Additional observations from a re-analysis of the deposited data

Results flagged for a closer look

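For several members the ratio of 3D over 2D went one way on every plate in one lineage and the other way on every plate in another. None of these differences was tested, since each condition is 1 sample and the plates are technical splits, and all rest on different cultures. The log2 ratio of *Klf4* in Epi wells over ESC was 3.73 below that in VE wells over iXEN cells (difference -3.73) and -3.65 against that in ExE wells over iTSC. For *Klf5* the Epi ratio differed from the VE ratio by -1.30, and the VE ratio from the ExE ratio by 0.76. For *Esrrb* these differences were -3.06 and 3.31, and for *Tcl1* -2.41 and 5.56. *Tbx3* and *Zfp42* differed between the Epi and VE ratios by -1.95 and -1.17. *Nr0b1* differed by 3.24 between the Epi and ExE ratios and by 6.65 between the VE and ExE ratios. The iXEN means of *Esrrb* and *Nr0b1* and the ExE mean of *Tcl1* are near the 0.01 TP10k added, so the size of the differences that contain them depends on it. The 5.56 of *Tcl1* also contains its ratio in ExE wells over iTSC, which was much smaller in size in cells with their own marker list highest.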

How the results depend on the processing

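No ratio that met the 2-fold criterion changed sign under the alternatives run, and of the other ratios only that of *Zfp42* in ExE wells over iTSC did, from 0.10 to -0.11 with means on the logarithmic scale. Of the counts and medians over members, recomputed under each setting, 5 moved and the others kept within their limits. Values of single members moved more often. Over all settings, 43 ratios of 3D over 2D, 14 ratios between well blocks and 49 shares of cells moved, while most did not. Cells with 5500 to 8500 genes gave the most such changes. There, 15 ratios of 3D over 2D moved and 12 did not, and 27 shares moved and 27 did not. With cells of their own marker list only, the members at least 2-fold lower in ExE wells than in iTSC on every plate went from 3 to 1, the log2 ratio of *Tfcp2l1* from -1.19 to -0.91 and that of *Tcl1* from -3.59 to -0.99. In cells with 5500 to 8500 genes, 1 member was higher in Epi wells than in ESC, *Nr0b1*, although only 20 ESC were left. The median pairwise r fell to 0.123 over cells with both genes above 0, and lay between 0.235 and 0.296 under the other settings that kept all plates. Leaving out 1 plate gave 3 to 4 members lower in Epi wells than in ESC (*Klf2* joined without plate 3), 3 to 4 higher in VE wells than in iXEN cells, 3 to 4 lower and 0 to 1 higher in ExE wells than in iTSC (without plate 4 *Klf2* and *Klf4* joined), 3 to 4 members higher in Epi wells than in both other blocks (*Zfp42* joined without plate 4), 1 to 2 for the VE wells (*Tbx3* joined without plate 5), and a median r of 0.212 to 0.263. *Tfcp2l1* missed the criterion in ExE wells against iTSC with TPM as deposited, with 0.1 TP10k added and within 5500 to 8500 genes, although its mean was still lower by close to 2-fold, and *Tcl1* no longer passed for the Epi wells over both blocks in that window. The cause of these changes was not tested. No paired analysis of 3D against 2D was possible because each condition is 1 sample, while the 3 well blocks were compared within each plate. Without read numbers, cells could not be brought to equal depth, which limits shares between 3D and 2D.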
